A study of Mus musculus with 2 samples.

Results

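The blood-rich spots were the 250 spots of a mouse heart section with the largest share of counts from the 4 adult globin genes Hbb-bs, Hbb-bt, Hba-a1 and Hba-a2. They were taken from the 3324 heart spots with at least 1000 counts and 200 features, and the other 3074 are called the remaining spots. Both sections of the series together held 7113 spots at this depth, of which 3789 were in brain. The heart was a normal mouse heart, fixed in formalin and embedded in paraffin, and cut at 5 µm. Its total RNA was copied in the section with random primers by the spRandom-seq protocol, and the labels add that the RT primer carried no cell barcode 2. Strain, sex and age were not given in the labels, and each tissue was 1 library of 1 section. No comparison therefore has a replicate, no test was run, and every interval below is an exact 95% interval for counting error only. A spot is a small region that can hold several cells of different types or parts of them, and fewer cells of a type and less RNA per cell cannot be told apart.

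Adult haemoglobin is built from 2 alpha and 2 beta chains around haem. Circulating mouse red cells have lost their nucleus but young ones, the reticulocytes, keep RNA for globins and for the last steps of haem synthesis. Blood in a heart section lies in the chambers, in coronary vessels and in capillaries between muscle cells, and brings platelets and leukocytes with it.

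The upstream sequences of the genes that chose the spots, and of the haem synthesis gene Alas2, are shown because these 5 genes were read together in the same spots. Each line holds the 120 bases before the RefSeq start site (build GRCm38.p6), 5′ to 3′ on the gene's strand. Capitals mark, on either strand, the GATA motif (GATAA), the CACCC box, the CCAAT box and a TATA box (searched as ATATAA), and overlapping matches run together.
Hbb-bs, chr7:103827929-103828048, minus strand: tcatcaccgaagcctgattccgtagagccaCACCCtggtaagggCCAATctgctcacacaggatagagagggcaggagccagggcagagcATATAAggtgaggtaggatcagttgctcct
Hbb-bt, chr7:103813924-103814043, minus strand: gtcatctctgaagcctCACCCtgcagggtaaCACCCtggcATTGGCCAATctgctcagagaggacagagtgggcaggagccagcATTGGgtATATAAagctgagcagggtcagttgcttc
Hba-a1, chr11:32283552-32283671, plus strand: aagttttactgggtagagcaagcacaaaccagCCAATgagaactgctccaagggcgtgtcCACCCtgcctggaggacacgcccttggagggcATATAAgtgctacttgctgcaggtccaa
Hba-a2, chr11:32296372-32296491, plus strand: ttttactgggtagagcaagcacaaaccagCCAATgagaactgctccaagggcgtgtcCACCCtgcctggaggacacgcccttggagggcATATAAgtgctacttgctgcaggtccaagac
Alas2, chrX:150547297-150547416, plus strand: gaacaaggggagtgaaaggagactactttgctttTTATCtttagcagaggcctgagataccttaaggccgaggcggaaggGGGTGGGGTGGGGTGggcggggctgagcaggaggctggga

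The last 3 of these motifs were found in all 4 globin windows, and 84 of the 27025 mouse promoters in the RefSeq table, 0.311%, held these 3 in the same length. Taken singly, CACCC was in 31.3% of all such windows, CCAAT in 22.1%, ATATAA in 4.68% and GATAA in 10.7%. GATAA was in the Alas2 window and not in the shown bases of a globin, and in each globin it was present within 250 bases before the start. The shown bases of Hba-a1 and Hba-a2 were identical at 117 of 117 aligned positions, with an offset of 3 bases. Those of Hbb-bs and Hbb-bt were identical at 88 of 119. Promoters were in the table for 11 of the 23 other red cell genes that stood clear of the background described below, and 5 of these 11 held CACCC in 120 bases, 2 held GATAA and 0 held ATATAA. A match describes letters in a window and not a bound site.

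The ranking rested on 20901 globin counts, of which the blood-rich spots held 16180, or 77.4%, and the remaining spots 4721. These values chose the spots and are given as a description. Hbb-bs, a beta chain, had 11432 counts or 6015 CPM (counts scaled to a common total, taken over all counts of the group's spots) in blood-rich spots and 3296 counts or 77.7 CPM in remaining spots. Hbb-bt, the second adult beta chain, had 3670 counts in blood-rich and 1035 in remaining spots. Hba-a1, an alpha chain, had 651 and 150 counts in blood-rich and remaining spots, and Hba-a2, its near copy, had 427 and 240. Globins made up between 0.359% and 1.74% of a blood-rich spot's counts, with a median of 0.825%, against at most 0.357% in a remaining spot, where the median was 0. A blood-rich spot held 4 to 259 globin counts, with a median of 64.5. No globin count was found in 1607 remaining spots, or 52.3%. The groups meet at the threshold: the last spot inside had 13 globin counts of 3623, or 0.359%, and the first outside had 26 of 7278, or 0.357%. Globin counts varied 93.9 times more between spots than counting error alone gives. All 4992 barcodes of the heart were also listed for the brain, where 1 globin count was found.

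Beta chains outnumbered alpha chains in both groups. Alpha globins were 6.66% (6.28 to 7.06) of globin counts in blood-rich spots and 8.26% (7.49 to 9.08) in remaining spots. Per kilobase of exon, Hbb-bs reached 7832 CPM and Hba-a1 422 CPM in blood-rich spots, against 101 and 4.35 CPM in remaining spots. Hbb-bs took 75.7% (75.0 to 76.4) of beta counts in blood-rich spots and 76.1% (74.8 to 77.4) in remaining spots, so these intervals overlap. Hba-a1 took 60.4% (57.4 to 63.3) of alpha counts in blood-rich spots and 38.5% (33.6 to 43.5) in remaining spots, and these do not overlap. The 2 alpha genes are near-identical, as are the 2 beta genes, and how reads matching both copies were counted is not given in the sources used here, so each split between copies is uncertain.

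Spots high in one kind of chain were high in the other. When spots were ranked by beta globins alone, alpha globins, which that ranking did not use, stood at 563 CPM in the top 250 against 9.38 CPM elsewhere, 60.0-fold (53.5 to 67.5). These 250 spots shared 248 with the blood-rich set, an overlap that the ranking largely fixes, since beta globins are most of the globin counts. When spots were ranked by alpha globins alone, beta globins were at 7362 CPM in the top 250 against 144 CPM elsewhere, 51.0-fold (49.5 to 52.6), and 198 of the 250 were in the blood-rich set. Ranking after each spot had been thinned at random to 1000 counts kept 231 of the 250.

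Blood-rich spots were shallower, with a median of 7753.5 counts and a range of 1021 to 15838, against a median of 10685.5 and a range of 1005 to 69150 in remaining spots. Ribosomal RNA took 44.5% of their counts and mitochondrial genes 3.23%, against 48.7% and 8.27% in remaining spots. A background measure was taken from 1489 olfactory and vomeronasal receptor genes, which heart tissue hardly uses. Their sum was 2968 CPM in blood-rich spots and 1019 CPM in remaining spots, 2.91-fold (2.83 to 2.99), so counts on genes that should be silent were denser per kilobase of gene in blood-rich spots. Among the 6309 features that reached 20 CPM in one of the groups, 2290 were at least 2-fold higher in blood-rich spots, a share of 36.3%, and 636 were at least 2-fold lower, a share of 10.1%. Only 318, or 5.04%, were higher and also at least 2 times the receptor density over the gene's span, and these are called clear of background. Clear concerns the level in blood-rich spots, and a clear gene can have a ratio under 2.91. With blood-rich spots scaled so that receptor genes were equal, 49 features were higher and 3089 lower, so the share of higher calls went to 1.56%, against 78.3% as scaled to all counts. The median log2 ratio of the 6309 features was 0.50, and that scaling shifts every log2 ratio by -1.54.

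Calls followed the length of the gene. The median log2 ratio was -1.07 for features spanning up to 5 kb and 1.26 for those over 300 kb, where 58.2% were higher and 1.85% lower. Among features of up to 5 kb 11.5% were higher and 53.8% lower. The values below are therefore read beside the receptor ratio of 2.91.

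**Figure D1:**
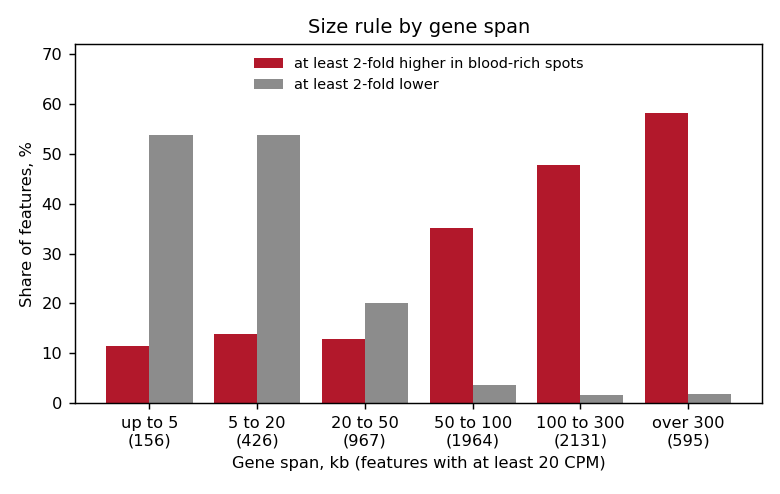
Share of features, in percent, that were at least 2-fold higher (red) or lower (grey) in blood-rich than in remaining spots, by gene span in kilobases, with the number of features in brackets. The red bars lie between 11.5% and 13.8% up to 50 kb and reach 58.2% over 300 kb, and the grey bars are tallest, at 53.8%, for genes of up to 5 kb.

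Red cell genes other than the adult globins moved with the globins. The 59 genes of 4 lists, covering haem synthesis, the red cell membrane, red cell cytosol and maturation, and erythroid transcription factors, summed to 5856 CPM in blood-rich and 1029 CPM in remaining spots, 5.69-fold (5.57 to 5.81), and 1.95-fold with receptor genes set equal. Of the 59, 25 were higher, 23 of them clear of background, and 0 were lower. Of all features tested 36.3% were higher, 5.04% clear and 10.1% lower. In the order of the lists, 5, 12, 14 and 2 genes reached 20 CPM in one of the groups, and only these could be called. Of the 25, only Fech, Epb41, Ank1, Cat and Xpo7 also reached 20 CPM in remaining spots. The rule could call the others in this direction alone. The median log2 ratio of the 59 was 1.56, over genes of any level. The 0.50 over all features tested takes only features at 20 CPM in one of the groups, so these medians do not compare like for like.

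Haem synthesis was led by Alas2, the red cell form of the first enzyme of the pathway, with 913 counts or 480 CPM in blood-rich spots and 360 counts or 8.49 CPM in remaining spots, 56.6-fold (50.1 to 64.1). Slc25a37, the mitochondrial iron importer mitoferrin 1, stood at 319 and 11.3 CPM in blood-rich and remaining spots, 28.3-fold. Fech, which puts iron into the ring, stood at 253 and 33.8 CPM, 7.49-fold. These 3 were the only called genes of 12 in the list, and the middle steps had few counts. Urod had 18 counts in blood-rich and 157 in remaining spots, or 9.47 and 3.70 CPM. Alad had 7 and 200 counts, or 3.68 and 4.71 CPM. Tfrc, the transferrin receptor, was at 18.9 CPM in blood-rich spots and 25.1 CPM in remaining spots.

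Among 17 membrane genes 8 were higher, 7 of them clear. Epb41, protein 4.1 of the membrane skeleton, was the most abundant at 953 CPM in blood-rich and 131 CPM in remaining spots, 7.28-fold (6.90 to 7.67). Slc4a1, the band 3 anion exchanger, had the largest ratio of the list, with 148 CPM in blood-rich and 3.06 CPM in remaining spots, 48.4-fold (39.2 to 60.1). Epb42, protein 4.2 of the membrane skeleton, was 14.5-fold higher and Kel, the Kell blood group protein, 9.83-fold. Ank1, the ankyrin that ties band 3 to spectrin, was 4.02-fold higher. Add2 was 3.15-fold higher but not clear of background. Sptb, Tmod1 and Aqp1, which muscle or endothelium also express, had ratios of 0.84, 0.57 and 0.56.

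Of 21 genes of the cytosol and of maturation, 12 were higher, all clear. Tent5c, a poly(A) polymerase, stood at 657 CPM in blood-rich and 13.5 CPM in remaining spots, 48.8-fold (44.2 to 54.0). Bpgm, which makes 2,3-bisphosphoglycerate and so loosens the hold of haemoglobin on oxygen, was 30.5-fold higher, and Car2, a carbonic anhydrase, 34.5-fold. Genes linked to the clearing of proteins and organelles from the reticulocyte were among the called ones: Ube2o, a ubiquitin ligase, was 14.7-fold higher and Bnip3l, a mitophagy receptor, 10.3-fold. Mkrn1 was 17.3-fold, Ube2l6 28.7-fold and Isg20 26.2-fold higher. Trim10 was 43.2-fold higher on 58 counts in blood-rich and 30 in remaining spots. Catalase (Cat) and Xpo7 showed the smallest called ratios, 2.98 and 2.23, and Prdx2 was at 37.4 CPM in blood-rich and 28.8 CPM in remaining spots.

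The regulators of red cell formation, which act in nucleated precursors, were at low levels. Of 9 erythroid transcription factor genes, Bcl11a (2.48-fold, not clear) and Lmo2 (2.82-fold, clear) were higher, and the list's sum ratio of 2.29 turned to 0.785 with receptor genes set equal. Klf1 had 0 counts in blood-rich spots, where the limit taken for a count of 0, 3 counts, is 1.58 CPM. In remaining spots it had 11 counts, or 0.259 CPM, which is under that limit. Gata1 had 7 and 72 counts in blood-rich and remaining spots, or 3.68 and 1.70 CPM, 2.17-fold (0.843 to 4.71). Epor had 2 and 25 counts, or 1.05 and 0.589 CPM, 1.79-fold (0.205 to 7.16). Embryonic and theta globins were 15.1-fold higher in sum (7.995 to 28.1), and 5.20-fold with receptor genes set equal, on 19 counts in blood-rich spots and 28 in remaining spots. None of 9 genes of haem and iron clearance was called, and 1 of them, Fth1, reached 20 CPM: Fth1, the ferritin heavy chain, stood at 123 CPM in blood-rich and 152 CPM in remaining spots, and Hmox1, which breaks down haem, at 1.58 and 1.48 CPM.

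Counts per gene were sparse in a single spot. After thinning to 3000 counts, which left 227 blood-rich and 2695 remaining spots and dropped 23 and 379 as too shallow, Tent5c was seen in 81.5% of blood-rich and 4.64% of remaining spots. Without thinning, at median depths of 7753.5 and 10685.5 counts, Tent5c was seen in 92.8% of blood-rich and 13.3% of remaining spots. Myh6, the cardiac alpha myosin, was seen in 85.5% of thinned blood-rich and 99.3% of thinned remaining spots.

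**Figure D2:**
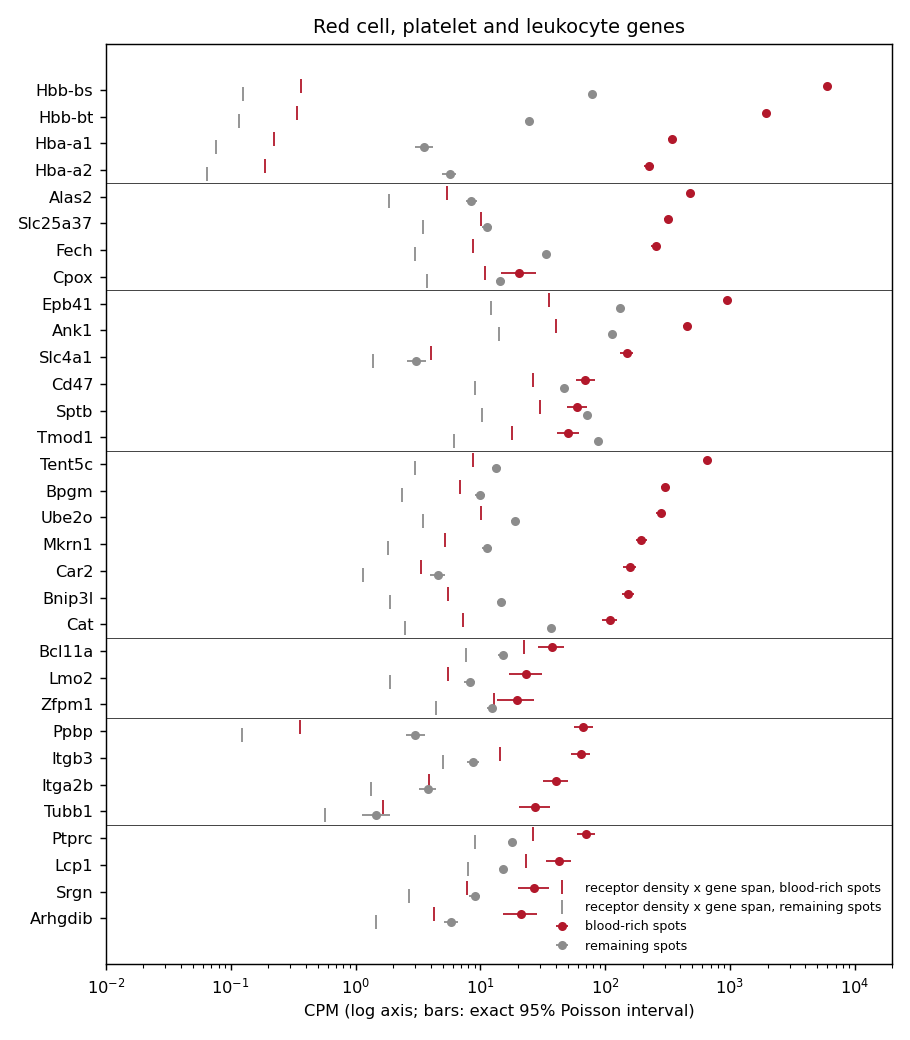
CPM on a log axis of red cell, platelet and leukocyte genes in blood-rich (red) and remaining spots (grey), with exact 95% Poisson intervals, grouped by lines into globins, haem synthesis, membrane, cytosol and maturation, transcription factors, platelet and leukocyte genes. Ticks give the receptor density times the gene's span, and Alas2, at 480 CPM, lies far right of its tick while leukocyte genes lie closer to theirs.

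Platelet genes were also higher in blood-rich spots. The 14 platelet genes summed to 290 CPM in blood-rich and 30.4 CPM in remaining spots, 9.56-fold (8.64 to 10.6), and 3.28-fold with receptor genes set equal. All 14 had a ratio above 1. The 4 called genes reached 20 CPM in blood-rich spots and not in remaining spots, so the rule could call them in this direction alone. Ppbp, a chemokine stored in platelet granules, had 127 counts or 66.8 CPM in blood-rich and 128 counts or 3.02 CPM in remaining spots, 22.1-fold (17.2 to 28.5). Tubb1, the platelet beta tubulin, was 18.7-fold higher, and the 2 chains of the fibrinogen receptor, Itga2b and Itgb3, were 10.6-fold and 7.30-fold higher. Pf4 stood at 12.1 CPM in blood-rich and 2.22 CPM in remaining spots.

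Platelet counts were uneven among the blood-rich spots. The 552 platelet counts left 70 of the 250 spots with none, and the 25 spots with the most held 42.6% of them. At 1000 CPM or more of platelet genes there were 17 blood-rich and 15 remaining spots. Of the 250 spots with the largest platelet share, 128 were blood-rich, or 51.2% of each set, against 7.52% of all spots. Spots ranked 251 to 300 by globin share had a platelet sum of 477 CPM, above each of the 5 blocks of 50 blood-rich spots.

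Leukocyte genes differed by class in how they stood to the receptor background. The 66 genes of 6 lists summed to 870 CPM in blood-rich and 357 CPM in remaining spots, 2.43-fold (2.31 to 2.56), which is under the receptor ratio of 2.91 and turns to 0.836 with receptor genes set equal. The pan-leukocyte list was 3.50-fold higher (3.16 to 3.88), above the receptor ratio. The median log2 ratio of the 66 was 1.80, against 1.80 for single receptor genes, both over genes of any level. These medians do not compare like for like with the 0.50 over the 6309 features tested, which takes only features at 20 CPM. For log2 ratios 0.5 was added to each count, which lifts genes with few counts: Igkc, with 0 counts in both groups, had 4.48. Of the 66, 10 were higher and 4 of these clear: Ptprc, the common leukocyte antigen CD45 (70.5 and 18.0 CPM in blood-rich and remaining spots, 3.93-fold), Srgn (2.99-fold), Arhgdib (3.63-fold) and Ciita, the regulator of MHC class II genes (4.65-fold). Cx3cr1, Adgre1, Cd247, Bank1, Pax5 and Lcp1 were higher but within 2 times the receptor density. Over all features tested, which are those at 20 CPM in one of the groups, 36.3% were higher and 5.04% clear. The 66 include genes of any level, so their share called does not compare like for like. At 20 CPM in one of the groups, and so open to a call, were 4 pan-leukocyte and 5 monocyte and macrophage genes. To these add 1 T and NK cell, 2 B and plasma cell and 1 MHC class II genes. Of the 10 called, only Bank1 also reached 20 CPM in remaining spots, so the rule could call the others in this direction alone.

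By cell class, neutrophil genes summed to 51.0 CPM in blood-rich and 11.8 CPM in remaining spots, 4.33-fold (3.45 to 5.39), and none of the 13 reached the 20 CPM that a call needs. S100a8 was 14.9-fold higher (5.98 to 35.4) on 10 counts in blood-rich and 15 in remaining spots, and Cxcr2 was 10.5-fold higher on 16 and 34 counts. Retnlg and Elane had 0 counts in blood-rich spots and 5 and 8 counts, or 0.118 and 0.189 CPM, in remaining spots. Both levels are under the limit for a count of 0 in blood-rich spots, 1.58 CPM, so these counts show no difference. T and NK cell genes had 166 counts in blood-rich and 891 in remaining spots, 4.16-fold, and B and plasma cell genes stood at 187 and 51.5 CPM, 3.63-fold. MHC class II genes were 2.27-fold higher in sum, and mast cell genes 3.22-fold, with Kit not clear. Ighm, the IgM heavy chain, was 10.3-fold higher on 23 counts in blood-rich and 50 in remaining spots. Monocyte and macrophage genes were closest between the groups, at 259 CPM in blood-rich and 182 CPM in remaining spots, 1.42-fold. With receptor genes set equal the ratios were 1.49 for neutrophil, 1.43 for T and NK cell, 1.24 for B and plasma cell, 1.20 for pan-leukocyte, 1.11 for mast cell, 0.778 for MHC class II and 0.488 for monocyte and macrophage genes. Lyz2 stood at 25.8 CPM in blood-rich and 14.7 CPM in remaining spots. Cd68 and Cd14 had 0 counts in blood-rich spots and 36 each, or 0.849 CPM, in remaining spots. That level is under the 1.58 CPM limit for a count of 0, so these counts show no difference.

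**Figure D3:**
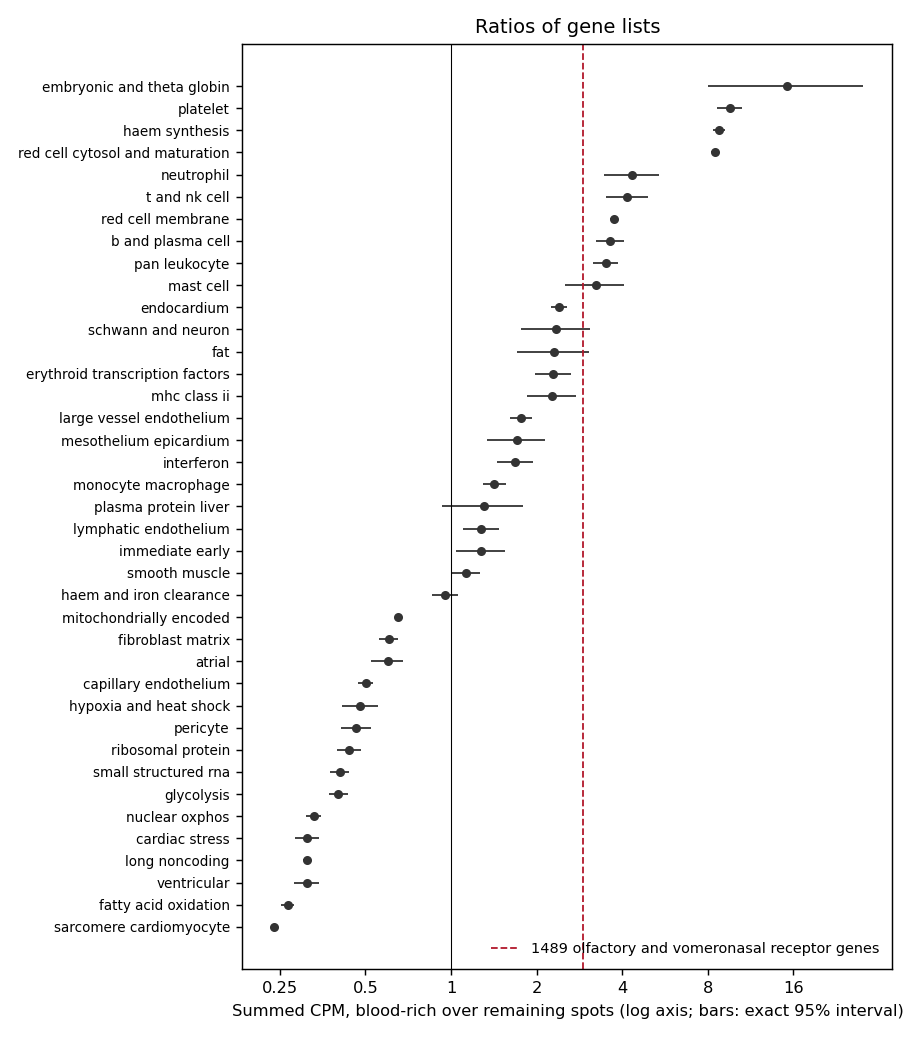
Ratio of summed CPM, blood-rich over remaining spots, on a log axis for each gene list other than the adult globins, with exact 95% intervals for counting error. Embryonic globin, platelet, haem synthesis and red cell cytosol lists lie above 8, well right of the dashed receptor line at 2.91, and the sarcomere list is lowest at 0.238.

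Heart muscle genes were lower in blood-rich spots. The 20 sarcomere genes summed to 7780 CPM in blood-rich and 32658 CPM in remaining spots, a ratio of 0.238 (0.234 to 0.242), and 19 of the 20 were lower, the exception being Ckm at 0.74. Ttn, the titin spring of the sarcomere, stood at 3204 CPM in blood-rich and 15388 CPM in remaining spots. Below the 10th percentile of the remaining spots, 19393 CPM, lay 228 blood-rich spots, or 91.2%, and 2 reached the remaining median. Energy genes of heart muscle went the same way: 11 of 14 genes of fatty acid oxidation, 11 of 13 nuclear genes of oxidative phosphorylation and 8 of 12 of glycolysis were lower, against 10.1% of all features tested. Their median spans were 24.6, 7.12 and 20.4 kb, and by span 53.8% of all features of 5 to 20 kb and 20.2% of those of 20 to 50 kb were lower. The 13 mitochondrially encoded genes had a ratio of 0.648, with 4 lower. Malat1, a nuclear long noncoding RNA, stood at 1833 CPM in blood-rich and 6135 CPM in remaining spots.

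Among other lists, those of the ventricle, cardiac stress, ribosomal proteins, hypoxia and small RNAs had sum ratios under 1. Myl2, the ventricular light chain that is also in the sarcomere list, stood at 207 CPM in blood-rich and 689 CPM in remaining spots, and was the 1 lower gene of 4 ventricular genes. Of 5 cardiac stress genes 3 were lower: Xirp2 at 178 CPM in blood-rich and 528 CPM in remaining spots, Myh7 at a ratio of 0.243 and Ankrd1 at 0.170. Of 17 ribosomal protein genes 8 were lower, a share near the 53.8% of all features of up to 5 kb, and their median span was 3.57 kb. Of 12 genes of hypoxia and heat shock 3 were lower, among them Vegfa at 0.204. In the ventricular, cardiac stress and hypoxia lists 1, 3 and 4 genes reached 20 CPM in one of the groups. Median spans of these lists were 11.5, 8.14 and 13.8 kb. Of all features of 5 to 20 kb 53.8% were lower, and of all features tested 10.1%. Rn7sk, a small nuclear RNA, stood at 168 CPM in blood-rich and 499 CPM in remaining spots. The lists of fat (2.31), Schwann cells and neurons (2.35), mesothelium (1.70) and liver plasma proteins (1.30) had sum ratios above 1, as did immediate early genes (1.27), and all 5 are under 1 with receptor genes set equal. In the first 4 no gene reached the 20 CPM that a call needs, and in the fifth 1 did, Dusp1, at 22.6 CPM in blood-rich and 14.2 CPM in remaining spots.

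**Figure D4:**
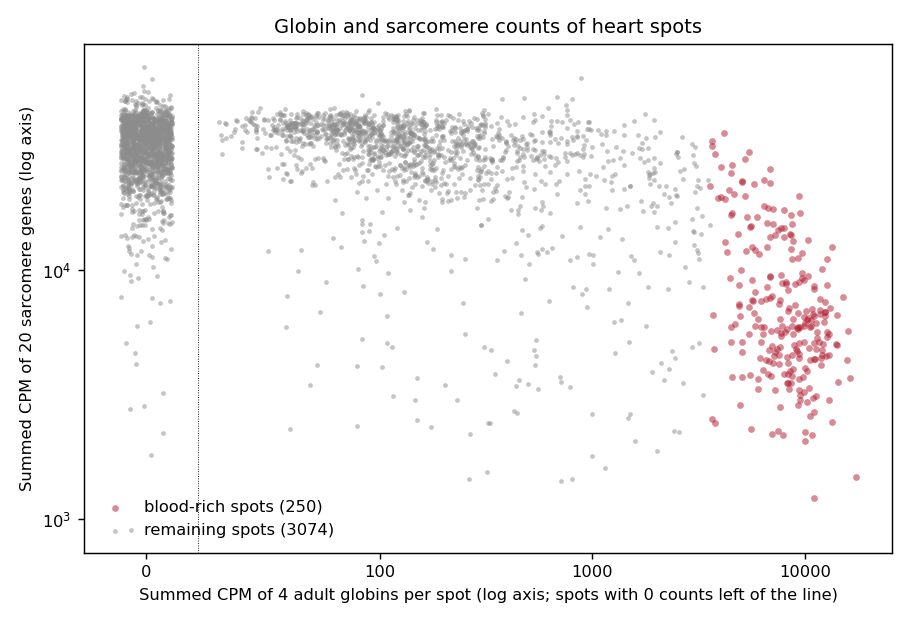
Each point is a heart spot, with the summed CPM of the 4 globins on a log horizontal axis (spots with 0 globin counts left of the dotted line) and of 20 sarcomere genes on a log vertical axis. Blood-rich spots (red) mostly lie low, with 228 of 250 below 19393 CPM of sarcomere genes, and 2 reach the median of the remaining spots (grey).

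Genes of the chamber and vessel lining differed by type of endothelium. Endocardial genes, which mark the lining of the chambers, summed to 544 CPM in blood-rich and 227 CPM in remaining spots, 2.40-fold (2.25 to 2.56), but 0.824-fold with receptor genes set equal. Nrg1, a growth factor gene of 1069 kb, gave 602 of the 1034 counts in blood-rich spots and was not clear, at 1.28 times the receptor density. Npr3, a natriuretic peptide receptor of endocardium, was higher and clear at 52.6 CPM in blood-rich and 26.1 CPM in remaining spots. Its ratio of 2.01 is under the receptor ratio of 2.91. Vwf, von Willebrand factor, was higher and clear at 125 CPM in blood-rich and 48.0 CPM in remaining spots. Its ratio of 2.61 is also under the receptor ratio. The large vessel list as a whole was 1.76-fold higher, or 0.604-fold with receptor genes set equal. The sum of 12 capillary genes was lower, 529 CPM in blood-rich and 1057 CPM in remaining spots. However, 5 of the 12 had ratios above 1, among them Pecam1 at 1.17 and Tek at 1.24. The 3 called lower were Kdr at a ratio of 0.396, Fabp4 at 0.179 and Cd36, a fatty acid transporter. Cd36 stood at 155 CPM in blood-rich and 523 CPM in remaining spots, and gave 22202 of the list's 44846 counts in remaining spots. Fibroblast matrix genes stood at 361 CPM in blood-rich and 598 CPM in remaining spots, with Col3a1 and Col1a1 lower, and pericyte genes at 146 and 314 CPM, with Rgs5 and Abcc9 lower. In the lymphatic list Mmrn1, which platelets also hold, was higher and clear at 36.3 CPM in blood-rich and 11.2 CPM in remaining spots, while Prox1 stood at 24.7 and 42.1 CPM. Of 7 smooth muscle genes Mylk was 2.22-fold higher but not clear and Smtn was lower. Atrial genes summed to 128 CPM in blood-rich and 214 CPM in remaining spots with 1 of 9 lower, Myl7, and 4 of the 250 spots richest in atrial genes were blood-rich, or 1.60% of each set.

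Gene groups followed the globin ranking in different ways. The 59 other red cell genes fell from block to block along the ranks, at 7421 CPM in ranks 1 to 50 and 4197 CPM in ranks 201 to 250, then 2670 CPM in ranks 251 to 300, 1728 CPM in ranks 301 to 500 and 952 CPM in the spots with no globin count. Alas2 alone went the same way, with 761 CPM in the first 50 ranks, 265 CPM in ranks 201 to 250 and 3.71 CPM in spots with no globin count. Sarcomere genes ran the other way, from 5300 CPM in the first 50 ranks to 13172 CPM in ranks 201 to 250. Receptor genes were between 2585 and 3225 CPM in all 5 blood-rich blocks and 1877 CPM in ranks 251 to 300. Gm33838, a long noncoding RNA, was level inside the blood-rich set, between 2567 and 3007 CPM in its 5 blocks, and stood at 1259 CPM in ranks 251 to 300. Mocos, a molybdenum cofactor enzyme, was likewise between 1567 and 1672 CPM inside, then 1259 and 552 CPM in the next 2 blocks.

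**Figure D5:**
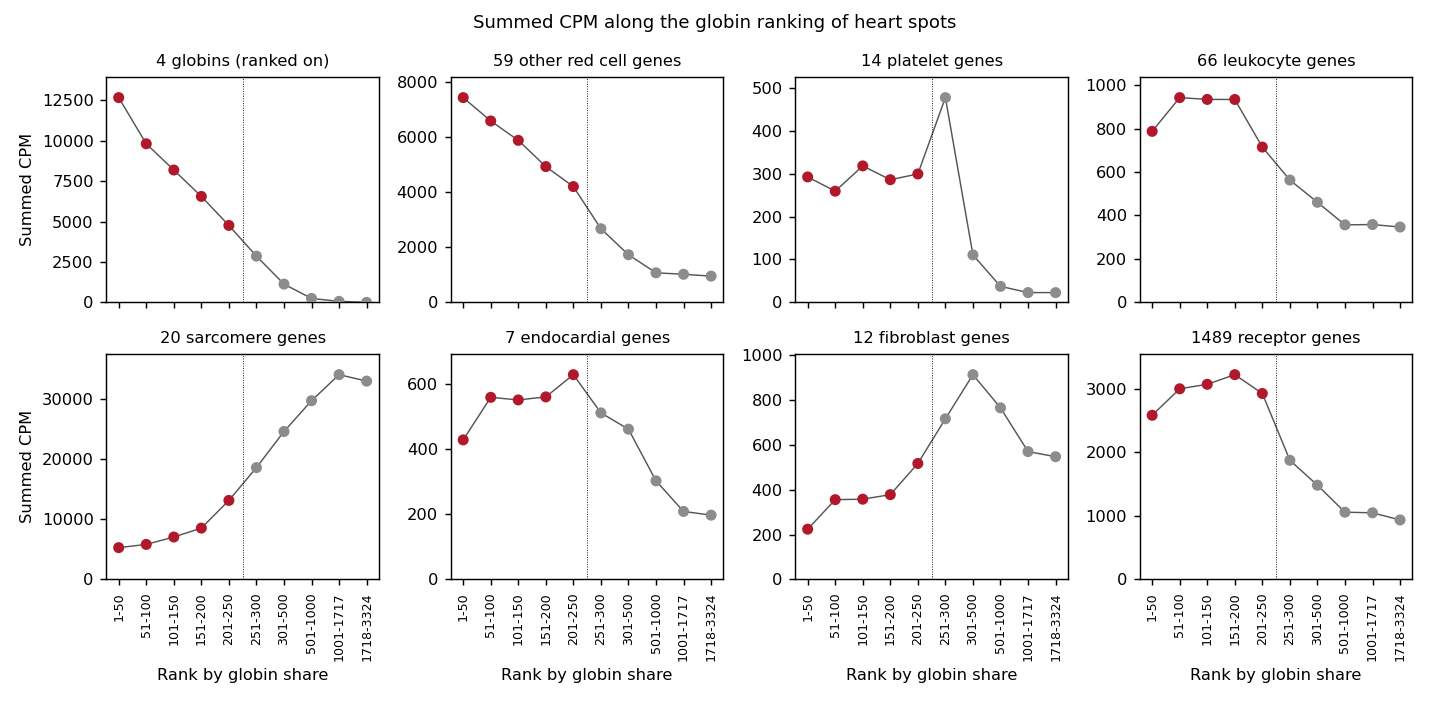
Summed CPM of 8 gene groups in consecutive blocks of heart spots ranked by globin share, blood-rich blocks in red and remaining blocks in grey, with a dotted line at rank 250. Other red cell genes decline along the ranking, sarcomere genes climb up to rank 1717, and the platelet sum peaks at 477 CPM just outside the blood-rich set.

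Within the 250 blood-rich spots the Spearman correlation of the globin share was 0.73 with the share of other red cell genes, -0.36 with sarcomere genes, 0.07 with platelet genes, 0.08 with leukocyte genes and -0.01 with receptor genes. These are descriptions over 250 spots of 1 library, whose shares have a common denominator. The 50 blood-rich spots lowest in sarcomere genes had 621 CPM of platelet genes, against 156 to 274 CPM in the other 4 groups of 50. The 50 highest in sarcomere genes, at 19442 CPM, still held 4104 CPM of other red cell genes and 6156 CPM of globins.

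A comparison at matched sarcomere level changed several of these ratios. It was added after the data had been seen and weights the remaining spots to the sarcomere deciles of the blood-rich spots. It rests mainly on 257 remaining spots, with the weight spread unevenly among them. Deciles 3 to 6 held 10, 11, 4 and 6 remaining spots but carried 12.8%, 11.8%, 10.2% and 10.6% of the weight. The largest weight of a single spot was 4.62%, and the ratios below have no interval. Other red cell genes were then 4.26-fold higher, Alas2 14.7-fold and Slc4a1 18.6-fold. Platelet genes were 1.92-fold, leukocyte genes 1.16-fold and receptor genes 1.39-fold higher. Endocardial genes stood at 544 CPM in blood-rich and 721 CPM in matched remaining spots, a ratio of 0.755, and Npr3 and Vwf also had ratios under 1. Fibroblast genes were at 361 CPM in blood-rich and 2697 CPM in matched remaining spots, a ratio of 0.134, and mitochondrially encoded genes at 9986 and 6124 CPM, a ratio of 1.63. Malat1 had a ratio of 0.238 in this comparison. Depth, gene length and the density of receptor counts moved with the groups, and their part in these results was not tested.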

How the data were processed

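The deposited values are counts per feature and barcode in a sparse matrix, 1 per section. Per the submitters' processing notes, the authors used STARsolo and genome build mm39. Versions, merging of molecular tags, use of strand and counting of introns are not given in the sources used here. GENCODE M21 (GRCm38) served only to look up gene span, exon length and biotype by gene ID, for 35500 of 40276 features. Promoters came from RefSeq, build GRCm38.p6.

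Counts were summed over the blood-rich and over the remaining spots and scaled to CPM of all counts, 1900470 and 42425137. Poisson and conditional binomial intervals are exact at 95%, take each count as a molecule and cover counting error only. A feature counted as higher or lower with a 2-fold ratio and 20 CPM in the higher group. It was clear of background at 2 times the receptor density, a rule added after the data were seen. The size rule was checked on simulated counts of known ratio, where its calls were recovered. All planted ratios were larger than 2-fold, in genes above 20 CPM, with counting error alone. The simulation held no receptor background and no spread between spots, so it does not show how the rule performs under these. Doublets were not called, as a spot is a region. Spot positions were not used here.

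The spots and the 40 gene lists were chosen with earlier results of these data known. Genes named were the 4 globins, the 2 to 4 most abundant members of a list, members past the size rule, markers at 0, and, outside the lists, the 15 features of 100 CPM or more furthest from equal in either direction; others were chosen after their values were seen. Some members of the lists enter the sums and counts but are not reported here by name. Alternatives covered depth, set size, ranking, scaling, weighting, fold and floor. Python 3.11.15, numpy 2.4.6, scipy 1.17.1, pandas 2.3.3 and matplotlib 3.10.9 were used.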

Additional observations from a re-analysis of the deposited data

Results flagged for a closer look

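Heart spots under the depth requirement, which enter no comparison of the report, held globin counts. The 4 globins had 153 of 443091 counts in these 1668 spots, or 345.3 CPM, which is above the remaining spots at 111 CPM and below the blood-rich spots at 8514 CPM. In brain, 0 of 370665 counts of the 1203 spots under the same requirement were globin, where a count of 0 allows up to 8.09 CPM. The value was picked out because it lies in data that the comparisons leave out.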

How the results depend on the processing

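No paired analysis was possible because each tissue has 1 library, and no library could be left out. Over 7 results and the alternatives, 45 values kept to the main value, 59 moved and 1 reversed. Values below are log2 ratios of blood-rich over remaining spots for other red cell genes (main 2.51), leukocyte (1.28), sarcomere (-2.07) and atrial genes (-0.74), and alpha globins after ranking by beta globins (5.91).

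Over counts outside ribosomal, mitochondrial and small structured RNA, which shifts each log2 ratio by -0.29, 3457 features were higher and 1439 lower, and the ratios were 2.22, 0.998, -2.35, -1.03 and 5.62. With each spot weighing the same, red cell genes were at 2.44, sarcomere genes at -1.84 and alpha globins at 5.02. At 3000 counts or more red cell genes were at 2.47 and sarcomere genes at -1.93. For the top 100 spots 957 features were lower, with 2.62 for red cell, -2.52 for sarcomere and 5.10 for alpha globins. For the top 500, 1423 were higher and 143 lower, with 2.01, 0.96, -1.12 and -0.36 for the first 4 ratios. Ranking by alpha globins gave 2.38 for red cell and -1.80 for sarcomere genes. Ranking after thinning gave 2.45, -1.95 and, for alpha globins, 5.61. Weighting to depth deciles gave 2.58, 1.49, -1.93, -0.26 and 5.11. A fold of 1.5 gave 1191 lower, and a fold of 3 gave 1020 higher and 237 lower. A floor of 5 CPM gave 7136 higher and 1063 lower, no floor 15394 and 6280, and a floor of 50 CPM 817 and 378.

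The other alternatives were chosen after seeing the data. With receptor density times span subtracted, 428 features were higher and 1658 lower, with 2.65, 1.06, -2.12 and -1.21. With receptor genes set equal, 49 were higher and 3089 lower, with 0.97, -3.61 and -2.28 for red cell, sarcomere and atrial genes and 4.37 for alpha globins, and the leukocyte ratio reversed to -0.26. At matched sarcomere level 305 were higher and 1178 lower, with 2.09, 0.22 and -1.20 for red cell, leukocyte and atrial genes and 4.16 for alpha globins. The causes were not tested. Depth limits single genes: with 1900470 counts in blood-rich spots, the limit taken for a count of 0, 3 counts, is 1.58 CPM.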

Other observations

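Outside the gene lists, the largest ratios at 100 CPM or more in blood-rich spots belonged to Rsad2, an antiviral enzyme induced by interferon, at 293 CPM in blood-rich and 11.4 CPM in remaining spots, 25.8-fold (22.8 to 29.2). In the interferon list 1 of 10 genes reached the 20 CPM that a call needs, and 0 were called. The list's sum ratio was 1.68, under the receptor ratio of 2.91, and 0.576 with receptor genes set equal. Of its 10 genes 7 had a ratio above 1. Isg15, a gene of this list under 20 CPM, was 25.6-fold higher at 16.3 CPM in blood-rich and 0.636 CPM in remaining spots. Mocos, the molybdenum cofactor sulfurase, stood at 1629 CPM in blood-rich and 115 CPM in remaining spots, 14.2-fold (13.6 to 14.9). Pabpc1, a poly(A) binding protein, stood at 540 CPM in blood-rich and 38.6 CPM in remaining spots, and Epm2a, the glycogen phosphatase laforin, stood at 1489 and 124 CPM, 12.05-fold. A pair of long noncoding RNAs of chromosome 9, Gm33838 and Gm39317, stood at 2775 and 1432 CPM in blood-rich spots and at 215 and 109 CPM in remaining spots. Thbs1 and Plek, which platelets are known to hold, were 8.33-fold and 7.71-fold higher, but Thbs1 had a ratio of 0.778 against remaining spots of matched sarcomere level. Serpina1b was 8.71-fold higher and has near-identical copies, so its count is uncertain. Chl1 was 7.72-fold, Tmem267 7.89-fold, Gda 7.21-fold, Ifngas1 9.92-fold, 9030622O22Rik 9.11-fold and Gm33228 8.60-fold higher.

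Below 100 CPM, and chosen after their values were seen, Apol11b stood at 89.5 CPM in blood-rich and 1.93 CPM in remaining spots, 46.3-fold (35.4 to 61.0), and Cd24a at 78.9 and 2.14 CPM, 36.8-fold. Gpx1, a glutathione peroxidase of red cells, was 11.2-fold higher. Ncoa4, the ferritin autophagy receptor, lay above 100 CPM and was also chosen after its value was seen. It stood at 134 CPM in blood-rich and 20.7 CPM in remaining spots, 6.47-fold.

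The 15 largest ratios in the other direction included genes of muscle metabolism and calcium handling. Pygm, muscle glycogen phosphorylase, stood at 25.8 CPM in blood-rich and 143 CPM in remaining spots, a ratio of 0.180. Lrtm1, Pdha1, Hrc and Ppp1r3a had ratios of 0.183, 0.202, 0.203 and 0.210, and Atp5pb, Ccng1, Hspa8, Nfe2l1, Ckmt2, Myom1, mt-Td, Vldlr, Lrrc2 and Ivns1abp lay between 0.217 and 0.240.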
